A study of Saccharomyces cerevisiae BY4741 with 6 samples.

Results

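The genes described here encode regulators of sterol and oxygen-responsive genes in yeast and enzymes that esterify, acetylate or release sterols. They comprise 5 transcription regulators (UPC2, ECM22, HAP1, ROX1 and MOT3), the sterol acyltransferase genes ARE1 and ARE2, the sterol acetyltransferase gene ATF2, the steryl ester hydrolase gene YEH1 and the sterol deacetylase gene SAY1. They were chosen by function from a list of 10, and the list was drawn up when strain differences in these same libraries were already known, among them that of ATF2. Differences between the strains are therefore given as values, with no test. Of the 10 listed genes 9 were in the count table of 5219 genes, and all 9 passed the filter of a mean count of 10, as did 5186 genes in all. HAP1 (YLR256W) is not analysed here.

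The assay was NET-seq, which reads out nascent transcription by pulling down RNA polymerase II and sequencing the RNA it is still making. All 6 libraries came from BY4741, a laboratory MATa strain of budding yeast, carrying RPB3-3xFLAG, a tagged polymerase subunit used for the purification, with a marker labelled His3MX6 in the wild type and HisMX6 in the deletion strain. The wild type had no further change, and the deletion strain carried spp1::KanMX6, which removes a subunit of COMPASS, the histone H3 lysine 4 methyltransferase. Each strain gave 1 library from log-phase cells in glucose medium, 1 at 15 min and 1 at 60 min after the cells were spun down and resuspended in galactose medium. The number of independent isolates per strain is not given in the sources used here. BY4741 descends from S288C, whose HAP1 gene is interrupted near its end by a Ty1 element, so both strains are weak in Hap1 function.

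Ergosterol is the main sterol of yeast membranes. Upc2 and its paralog Ecm22 are zinc-cluster proteins that bind sterol response elements and activate ergosterol synthesis genes, Upc2 most strongly when sterol is scarce. Rox1 and Mot3 are repressors of genes for growth without oxygen, and both also act on some ergosterol genes. Surplus sterol is esterified with fatty acids by Are1 and Are2 and kept in lipid droplets, from which Yeh1 and related hydrolases release it. Atf2 acetylates sterols and alcohols, and Say1 removes the acetyl group, a cycle that marks unwanted steroids for export.

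Library totals ran from 1162190 to 4167249 counts, so that 1 count was worth between 0.245 and 0.821 CPM, the count scaled to a fixed library total after TMM factors. SPP1 had 324, 69 and 131 counts in the wild type in glucose and at 15 and 60 min, against 1, 0 and 0 in the deletion, as the strain labels require. Values are relative to the rest of each library. In these bulk cultures, fewer transcribing cells and less nascent RNA per cell cannot be told apart. Reads that a gene shares with a similar paralog, or with a gene on the other strand, could not be separated, since the counting is not described in the sources used here. ARE1 is the only one of the 9 genes whose reference span overlaps another annotated gene, YCR050C.

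In wild-type cells in glucose, ATF2 had the highest NET-seq signal of the 9 per kilobase of coding length and ECM22 the lowest. ATF2 had 174 CPM per kb (exact 95% Poisson interval 162 to 187), ROX1 129 (116 to 143) and YEH1 110 (101 to 120). ARE2 followed with 50.1 CPM per kb, SAY1 with 45.8, MOT3 with 45.0 and ARE1 with 42.3, and the intervals of these 4 overlapped. UPC2 had 21.0 CPM per kb (17.8 to 24.7) and ECM22 15.9 (13.0 to 19.4), which also overlapped. Their ratio, given further on, had an interval just above 1. The intervals of ROX1 and YEH1 overlapped slightly, while that of ATF2 lay above both. All such intervals cover counting error only. At 15 min in galactose the order in the wild type was another one, with ROX1 first at 175.5 CPM per kb. There ATF2 had dropped to the seventh place with 15.8 and YEH1 to the last with 3.81 (1.64 to 7.50). In the deletion at 15 min ROX1 also came first (212), but ATF2 came next (94.1). There YEH1 (27.2) and UPC2 (20.5) had the lowest values.

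**Figure D1:**
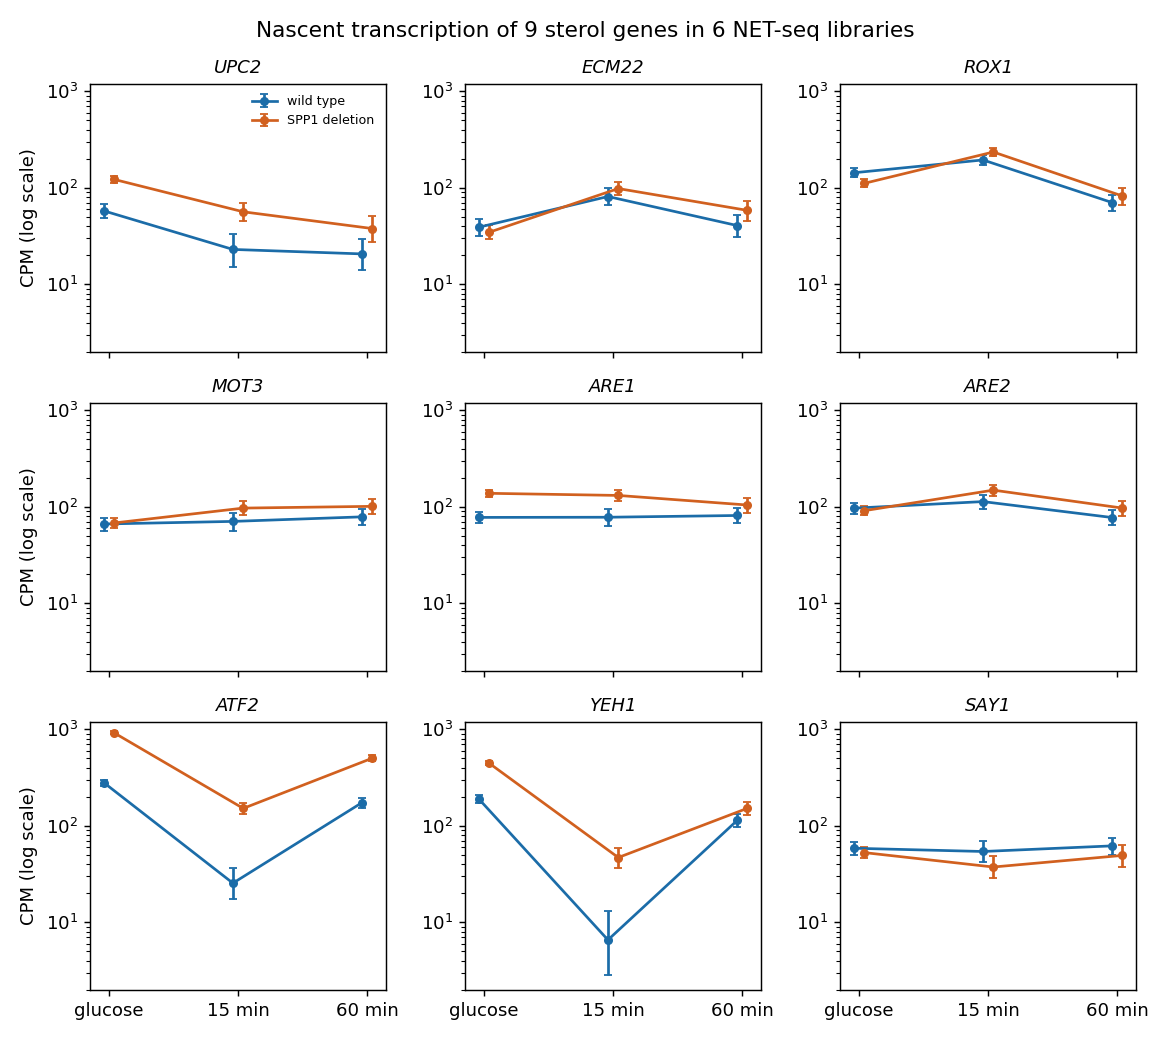
CPM (log axis) of each of the 9 genes in glucose and at 15 and 60 min in galactose, with 1 point per library and exact 95% Poisson intervals as bars, for the wild type (blue) and the SPP1 deletion (orange). ATF2 and YEH1 dip at 15 min in both strains, UPC2 is lower at both galactose times, and the deletion lies above the wild type throughout for UPC2, ARE1, ATF2 and YEH1.

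The first comparison asked what transfer from glucose to galactose did to these genes in both strains. At 15 min the sterol acetyltransferase gene ATF2 and the steryl ester hydrolase gene YEH1 fell steeply, UPC2 fell about as far as its paralog ECM22 rose, and ROX1 and ARE2 rose. MOT3, ARE1 and SAY1 did not pass the test. In all, 3 of the 9 genes rose and 3 fell, where 37.1% of all genes tested rose and 38.1% fell, so these shares are near or below the background. The median log2 change of the 9 genes was -0.04, against -0.01 over all genes. Changes were taken from edgeR's quasi-likelihood fit over all 6 libraries with strain and condition as additive terms and Benjamini-Hochberg adjustment over 5186 genes. That fit leaves 2 residual degrees of freedom, since the strains stand in for replicates of a condition. Its p-values set a shared change against the disagreement of the strains in their response, not against the spread between cultures of a strain. The fit also draws on the spread seen over all genes.

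YEH1 (YLL012W, chromosome XII, 125534 to 127255), whose product cleaves steryl esters in lipid droplets, had 487 counts in glucose and 8 at 15 min in the wild type, and 1816 and 74 in the deletion. That is 190 to 6.56 CPM and 445 to 46.8 CPM, and the galactose libraries lay below the glucose libraries in both strains. The fitted log2 change was -3.53 ± 0.27 (edgeR adjusted p = 8.76e-09). Errors after ± were obtained from the F statistic of each test (absolute log2 change over the root of F) and stand in for standard errors. ATF2 (YGR177C, chromosome VII, 848829 to 850436) had 719 counts and then 31 in the wild type, and 3749 and then 239 in the deletion. Its fitted log2 change was -2.86 ± 0.21 (edgeR adjusted p = 3.71e-09). Of all genes tested, 4.96% had a fitted change below that of YEH1 and 7.46% below that of ATF2.

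The paralogous activator genes went opposite ways. UPC2 (YDR213W, chromosome IV, 889751 to 892492) had 148 counts and then 28 in the wild type, and 498 and then 89 in the deletion, a fitted log2 change of -1.18 ± 0.18 (edgeR adjusted p = 2.06e-05). ECM22 (YLR228C, chromosome XII, 600019 to 602463) had 100 and then 99 counts in the wild type and 141 and then 155 in the deletion, in 15 min libraries of lower total, so that its level was 39.0 and then 81.1 CPM and 34.6 and then 98.1 CPM. Its fitted log2 change was 1.30 ± 0.19 (edgeR adjusted p = 1.21e-05). Per kilobase of coding length, UPC2 stood at 1.32 times ECM22 in wild-type glucose (exact 95% binomial interval 1.02 to 1.72). At 15 min ECM22 stood at 3.97 times UPC2 in the wild type (2.58 to 6.27) and at 1.95 times in the deletion (1.495 to 2.56). The order of the activator genes had thus turned round in both strains.

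ROX1 (YPR065W, chromosome XVI, 679693 to 680799), the hypoxic repressor gene, had 143 CPM in glucose and 194 at 15 min in the wild type, and 111 and 235 CPM in the deletion. The fitted log2 change was 0.77 ± 0.15 (edgeR adjusted p = 2.87e-04). ARE2 (YNR019W, chromosome XIV, 665339 to 667267), which encodes the acyltransferase that makes most steryl ester in air, had 96.6 and then 113 CPM in the wild type and 90.9 and then 149 CPM in the deletion, a rise of 0.49 ± 0.15 on the log2 scale (edgeR adjusted p = 9.27e-03). The counting interval of the wild-type change of ARE2 alone held 0, and DESeq2 did not call the gene (adjusted p = 0.0807). ARE1 (YCR048W, chromosome III, 211929 to 213761), its paralog, had 77.5 and then 77.9 CPM in the wild type and 138 and then 131 CPM in the deletion, a fitted log2 value of -0.04 ± 0.15 (edgeR adjusted p = 0.826). MOT3 (YMR070W, chromosome XIII, 409154 to 410626; log2 0.33, adjusted p = 0.0809) and SAY1 (YGR263C, chromosome VII, 1017967 to 1019241; log2 -0.31, adjusted p = 0.15) missed the threshold in the same edgeR test.

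**Figure D2:**
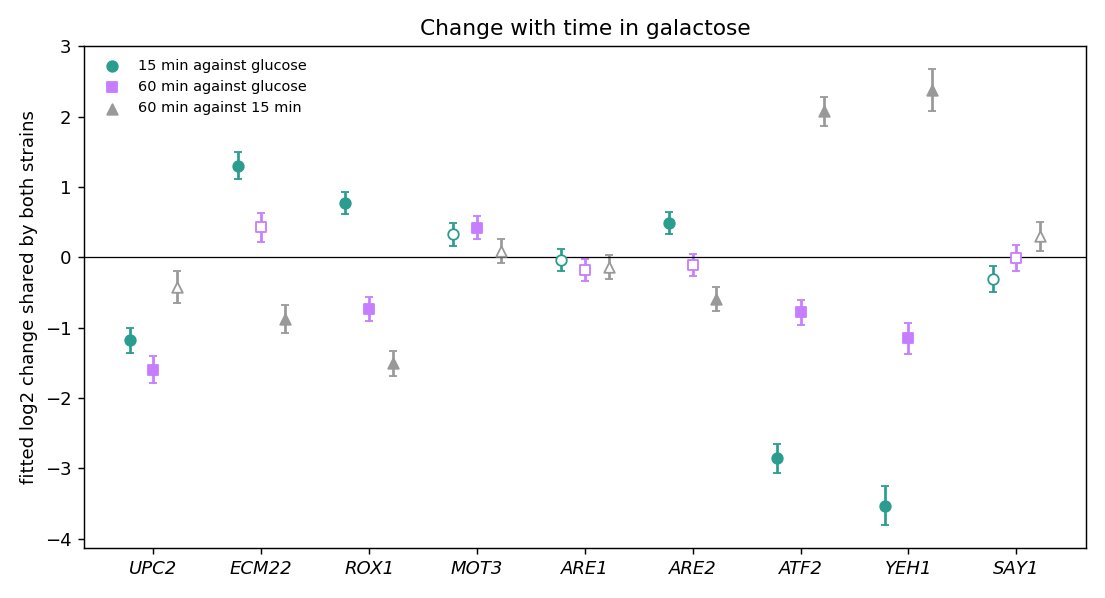
Fitted log2 change shared by both strains for each gene at 15 min (circles) and 60 min (squares) against glucose and at 60 against 15 min (triangles), with the stand-in standard error as bars; filled symbols passed edgeR's test at an adjusted p under 0.05. ATF2 and YEH1 lie lowest at 15 min and highest from 15 to 60 min, and UPC2 lies below 0 at both times.

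By 60 min ATF2 and YEH1 had regained much of their NET-seq signal and UPC2 had not. Against glucose, 1 of the 9 genes was higher and 4 were lower, where 32.3% of all genes tested were higher and 33.9% lower. The median log2 change was -0.18, against -0.02 over all genes. Between 15 and 60 min 2 of the 9 rose and 3 fell, where 20.4% of all genes rose and 16.1% fell. In numbers of genes that is 1056 and 835, a split that library totals moved to 1436 and 547. The median there was -0.14, against 0.00 over all genes.

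YEH1 reached 176 counts in the wild type and 185 in the deletion, a fitted log2 change of 2.38 ± 0.30 from 15 to 60 min (edgeR adjusted p = 2.44e-05). It was still below its glucose level (log2 -1.15, edgeR adjusted p = 2.19e-04), a call that DESeq2 did not make (adjusted p = 0.232). ATF2 reached 270 and 612 counts, a rise of 2.07 ± 0.21 (edgeR adjusted p = 3.15e-06), and likewise stayed below glucose (log2 -0.78, adjusted p = 1.25e-03). Of all genes tested, 98.6% had a smaller fitted value than YEH1 from 15 to 60 min and 97.6% a smaller one than ATF2.

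The regulators took other courses. UPC2 had 32 counts at 60 min in the wild type and 46 in the deletion, a log2 change of -1.60 ± 0.19 against glucose (edgeR adjusted p = 2.19e-06). Its value from 15 to 60 min (log2 -0.42, adjusted p = 0.171) did not pass. ROX1 fell by 1.51 ± 0.18 on the log2 scale from 15 to 60 min (edgeR adjusted p = 1.07e-05), to 70.2 CPM in the wild type and 82.1 CPM in the deletion. It ended below its glucose level (log2 -0.73, adjusted p = 1.51e-03). Only 1.1% of all genes had a lower fitted value than ROX1 from 15 to 60 min. ECM22 fell from its 15 min level (log2 -0.88, edgeR adjusted p = 3.27e-03) to a level that did not pass against glucose (log2 0.43, adjusted p = 0.0836). ARE2 also fell from 15 to 60 min (log2 -0.60, edgeR adjusted p = 0.0111), which DESeq2 did not call (adjusted p = 0.0794). MOT3 was higher than in glucose (log2 0.42, edgeR adjusted p = 0.0318), a call lost in limma (adjusted p = 0.0544) and DESeq2 (adjusted p = 0.191). ARE1 (log2 -0.18, adjusted p = 0.317) and SAY1 (log2 -0.01, adjusted p = 0.957) did not pass edgeR's test at 60 min, nor did ARE2 (log2 -0.11, adjusted p = 0.565). From 15 to 60 min, MOT3 (log2 0.09, adjusted p = 0.705), ARE1 (-0.14, adjusted p = 0.54) and SAY1 (0.30, adjusted p = 0.288) did not pass it either.

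The second comparison set the SPP1 deletion beside the wild type in each condition. ATF2, YEH1, UPC2 and ARE1 were higher in the deletion in all 3 conditions, and SAY1, which encodes the enzyme that undoes sterol acetylation, was lower in all 3. ECM22, ROX1 and ARE2 were lower in glucose and higher at both galactose times, and MOT3 was higher in all 3, by 0.04 on the log2 scale in glucose, which turned to -0.02 with library totals. With 1 library per strain and condition there is no replicate check. The deletion cannot be told apart from any other difference between the cultures. In glucose 3 of the 9 genes were at least 2-fold higher (log2 CPM, prior count 2), where 0.848% of all genes were, and 0 were 2-fold lower, against 0.366% of all genes. At 15 min 3 of the 9 were higher and 0 lower, against 1.58% and 0.675% of all genes. At 60 min 1 of the 9 was higher and 0 lower, against 1.2% and 0.501% of all genes. Since strain differences were known when the list was drawn up, nothing is read from these shares.

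ATF2 had 719 counts in the wild type and 3749 in the deletion in glucose, 31 and 239 at 15 min and 270 and 612 at 60 min. The deletion level was 3.27, 5.77 and 2.88 times that of the wild type in these conditions, and each deletion library stood above its wild-type partner. On log2 CPM the differences were 1.71 (exact 95% binomial interval 1.60 to 1.83), 2.53 (2.03 to 3.16) and 1.52 (1.32 to 1.74). Folds and log2 differences used the prior count of 2, and the intervals used the bare counts. Values from few counts are therefore smaller than ratios of CPM. In the mean over conditions ATF2 ranked 5 from the top of 5186 genes. YEH1 was 2.34-fold higher in the deletion in glucose and 6.34-fold at 15 min, from 8 and 74 counts, but 1.34-fold at 60 min. Its log2 differences were 1.23 (1.09 to 1.38), 2.67 (1.78 to 4.10) and 0.42 (0.12 to 0.73), and its mean ranked 12 from the top.

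UPC2 was the regulator that differed most. It was 2.10-fold higher in the deletion in glucose, 2.40-fold at 15 min and 1.79-fold at 60 min, with log2 differences of 1.07 (0.81 to 1.36), 1.26 (0.67 to 1.96) and 0.84 (0.19 to 1.57). Its paralog ECM22 differed by -0.17 (-0.55 to 0.21), 0.27 (-0.10 to 0.65) and 0.51 (0.01 to 1.03), with only the 60 min interval off 0. In glucose, UPC2 stood per kilobase at 3.15 times ECM22 in the deletion (2.61 to 3.82), an interval above the 1.02 to 1.72 of the wild type. ROX1 was lower in the deletion in glucose (log2 -0.36, -0.57 to -0.16) and higher at 15 min (0.27, 0.03 to 0.52), and at 60 min its interval held 0 (0.22, -0.18 to 0.63). MOT3 differed by 0.04, 0.45 (0.07 to 0.86) and 0.36, with an interval off 0 at 15 min only.

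The acyltransferase paralogs differed from each other in glucose. ARE1 was 1.77-fold higher in the deletion there (log2 0.82, 0.59 to 1.07), 1.67-fold at 15 min (0.74, 0.39 to 1.12) and 1.28-fold at 60 min, where the interval just held 0 (0.36, -0.01 to 0.73). ARE2 differed by -0.09 (-0.32 to 0.15) in glucose, 0.39 (0.09 to 0.71) at 15 min and 0.32 (-0.05 to 0.70) at 60 min. Per kilobase, ARE1 stood at 0.844 times ARE2 in wild-type glucose (0.697 to 1.02) and at 1.59 times in the deletion (1.40 to 1.82). At 60 min the ratios were 1.11 and 1.13. SAY1 had 150, 66 and 96 counts in the wild type and 215, 59 and 60 in the deletion, which gave log2 differences of -0.15 (-0.46 to 0.16), -0.52 (-1.07 to -0.01) and -0.32 (-0.82 to 0.15). The acetylating ATF2 thus stood per kilobase at 3.80 times the deacetylating SAY1 in wild-type glucose (3.18 to 4.56) and at 13.8 times in the deletion (12.1 to 15.9). At 15 min the order was reversed in the wild type, with ATF2 at 0.372 times SAY1 (0.235 to 0.579), but not in the deletion, where it stood at 3.21 times (2.41 to 4.35). At 60 min the ratios were 2.23 (1.76 to 2.85) and 8.09 (6.20 to 10.7).

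**Figure D3:**
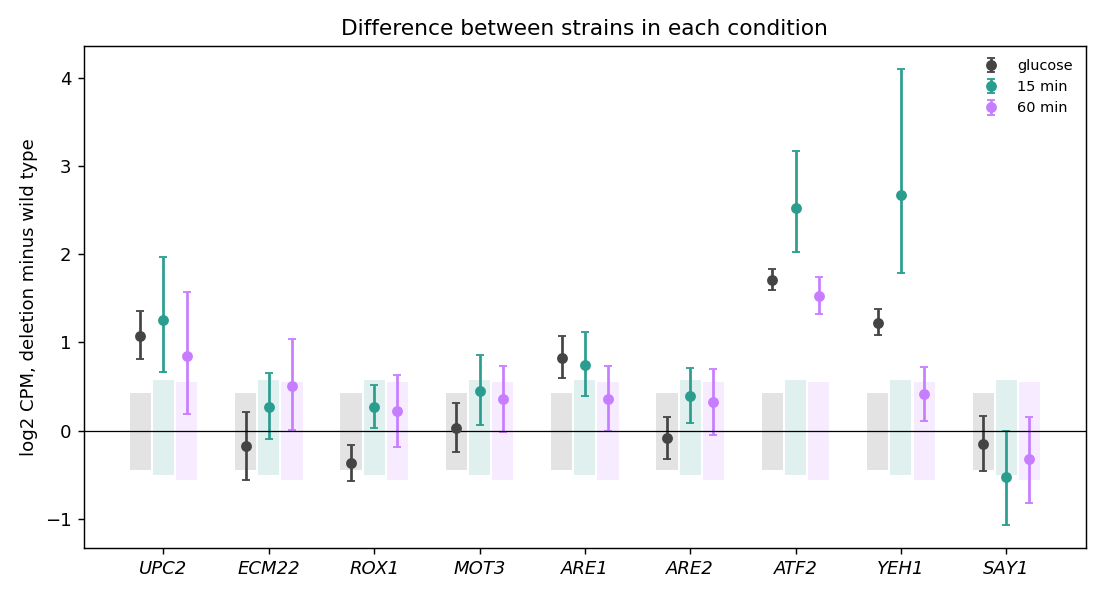
Difference between strains on log2 CPM (deletion minus wild type) for each gene in glucose (grey), at 15 min (green) and at 60 min (violet), with exact 95% binomial counting intervals as bars; the shaded boxes span the 5 to 95 percentiles of all 5186 genes in the same condition. ATF2 and UPC2 lie above the boxes in all 3 conditions, YEH1 and ARE1 in glucose and at 15 min, and SAY1 lies below 0 in all 3.

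The strains also differed in how far these genes moved, a comparison with 1 library per group and no test. Folds and log2 values used the prior count of 2, and the intervals used the bare counts. Folds from few counts are therefore smaller than ratios of the CPM given above. YEH1 dropped 25.3-fold at 15 min in the wild type (log2 -4.66, exact 95% counting interval -6.08 to -3.87) and 9.33-fold in the deletion (log2 -3.22, -3.60 to -2.91), and these intervals did not overlap. From 15 to 60 min it regained 15.2-fold in the wild type and 3.20-fold in the deletion. The difference in response was 1.44 log2 units at 15 min, rank 21 from the top of 5186 genes, and -2.25 from 15 to 60 min, rank 5184. The wild-type library at 15 min enters both values, and it held only 8 counts of YEH1. At 60 min against glucose, which does not use that library, the order was the other way. YEH1 was 1.67-fold below glucose in the wild type (log2 -0.74, -1.0 to -0.49) and 2.92-fold below in the deletion (log2 -1.55, -1.78 to -1.33), a difference of -0.81, rank 5090 of 5186. ATF2 dropped 10.7-fold in the wild type and 6.04-fold in the deletion at 15 min, a difference of 0.82, and regained 6.63-fold and 3.31-fold. For ATF2 too the intervals of the strains did not overlap at either step. Both steps again share the wild-type library at 15 min, which held 31 counts of ATF2. At 60 min against glucose, without that library, the intervals of ATF2 overlapped. The log2 change was -0.68 (-0.895 to -0.484) in the wild type and -0.87 (-0.997 to -0.748) in the deletion, a difference of -0.19, rank 3577 of 5186. The response of UPC2 differed by 0.19 at 15 min and -0.23 at 60 min, within the 5 to 95 percentile range of all genes (-0.55 to 0.65 and -0.60 to 0.64). For ROX1 the differences were 0.63 and 0.58, within that range although the strains' intervals at 15 min were apart (0.20 to 0.68 and 0.88 to 1.28), and ECM22 differed by 0.44 and 0.68, the latter outside the range.

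**Figure D4:**
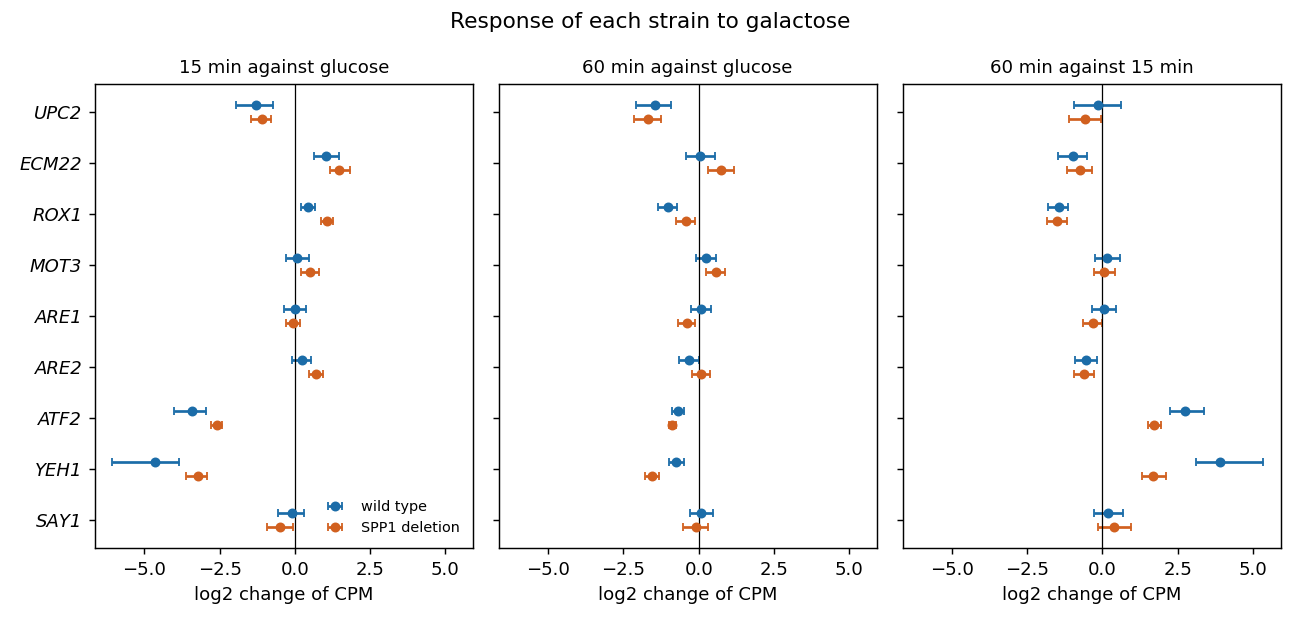
Change of CPM on the log2 scale in the wild type (blue) and the SPP1 deletion (orange) for each gene at 15 and 60 min against glucose and at 60 against 15 min, each from 1 library per point, with exact 95% binomial counting intervals as bars. YEH1 and ATF2 drop further at 15 min and regain more by 60 min in the wild type than in the deletion. ROX1 rises further in the deletion at 15 min. The intervals of these pairs do not overlap. The drop and the regain share the 15 min library of each strain, and at 60 min against glucose the intervals of ATF2 overlap.

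The course over all 6 libraries was compared with that of every other tested gene, by the root mean square difference of log2 CPM after each gene was centred on its own mean. The gene nearest to ATF2 was CYB5, which encodes the cytochrome b5 that feeds electrons to sterol desaturation (0.33 log2 units, with 735, 37 and 190 counts in the wild type and 3774, 202 and 378 in the deletion). CYB5 was also the nearest non-member to YEH1 (0.61), although ATF2 was nearer still (0.52). UPC2 was nearest to NCP1, the gene of the reductase that serves the sterol cytochrome P450 enzymes (0.25), and ARE1 to ERG10, the gene of the enzyme that starts the mevalonate pathway (0.09). The others were nearest to genes of other functions: ECM22 to PAM1 (0.10), ROX1 to IRC4 (0.14), MOT3 to BUR6 (0.06), ARE2 to CUE4 (0.07) and SAY1 to FUN26 (0.04). The course of IRC4 rests on few counts, 40, 19 and 9 in the wild type and 39, 31 and 9 in the deletion. For SAY1, 2178 genes were nearer than the nearest of the other members, against 4 for ATF2 and 0 for YEH1. The number was 1030 for MOT3, 759 for ARE2, 478 for ECM22, 438 for UPC2, 399 for ARE1 and 52 for ROX1. The points of these comparisons share libraries and depth, and the distances carry no test. They also include strain differences of the kind already known when the genes were listed.

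The adjacent measured genes, named for their position, were also read. ATF2 lies 405 bp from ERG1, the squalene epoxidase gene on the same strand, which was higher in the deletion by 1.95, 1.11 and 0.44 on the log2 scale in glucose and at 15 and 60 min. On its other side PBP1 differed by 0.09, 0.04 and 0.15. The neighbours of YEH1 were PUF3 (0.34, 0.09 and 0.48) and SOF1 (0.13, -0.32 and -0.25), and those of UPC2 were TCP1 and AHA1, each within 0.23 of 0 in all conditions. Beside ARE1, BUD23 differed by 0.48, 0.04 and 0.46 and YCR051W by 0.13, 0.68 and 0.21. At 15 min in galactose the fitted log2 changes were -1.75 for ERG1, -5.70 for SOF1, which lies 267 bp from YEH1 on the same strand, and -4.18 for BUD23 beside ARE1. Whether reads from adjacent genes enter the members' counts was not tested.

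Other genes of sterol and oxygen regulation were read from lists taken from general knowledge and chosen with earlier results of these data known. Over all conditions the edgeR fit called 1.1% of all genes higher in the deletion and 0.733% lower (57 and 38 genes, but 58 and 81 with library totals). For such strain calls the conditions of a strain stand in for its replicates. Their p-values therefore do not measure the spread between cultures of a strain, and another difference between the cultures could give the same calls. Of 25 ergosterol synthesis genes tested, 17 were higher in the deletion and 0 lower (0 at an unadjusted p under 0.05, and 0 in DESeq2 and limma), led by ERG3, ERG25 and CYB5. This list was known to move in these libraries and is no independent evidence. At 15 min 3 of these 25 rose and 16 fell, where 37.1% of all genes rose and 38.1% fell, with CYB5 (log2 -2.96, edgeR adjusted p = 5.25e-10), ERG3 (-2.55, adjusted p = 7.44e-06) and the lanosterol demethylase gene ERG11 (-2.52, adjusted p = 1.40e-07) as the largest changes. From 15 to 60 min 10 rose (6 in DESeq2) and 2 fell (1 with library totals), where 20.4% of all genes rose and 16.1% fell. At 15 min the median log2 change was -0.72, against -0.01 over all genes.

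Among 9 other regulators of sterol and oxygen genes, 1 was higher in the deletion, DAP1, whose heme-binding product supports Erg11 (0.84 ± 0.11, edgeR adjusted p = 5.74e-04), and 0 were lower (1 at an unadjusted p under 0.05, and 0 in DESeq2 and limma). Over all genes 1.1% were called higher in the deletion and 0.733% lower, so 0 lower among 9 genes is near the background. At 15 min 3 of these 9 regulators rose and 4 fell, near the 37.1% and 38.1% of all genes, the largest changes being those of NSG2, a regulator of HMG-CoA reductase stability (1.37, edgeR adjusted p = 9.46e-07), SUT2 (-1.36, adjusted p = 2.84e-07) and NSG1, the paralog of NSG2 (-0.90, adjusted p = 1.66e-05). The paralogs NSG1 and NSG2 thus went opposite ways, as UPC2 and ECM22 did.

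Genes of the hypoxic response were read as known targets of the repressors. Of 6 tested hypoxic genes that Rox1 or Mot3 are known to repress or that serve growth at low oxygen, 0 were called higher and 0 lower in the deletion by edgeR (1 and 0 at an unadjusted p under 0.05, and 0 in DESeq2 and limma), and 1 was higher without the 60 min libraries. Over all genes 1.1% were called higher in the deletion and 0.733% lower, so a count of 0 among 6 genes is near the background. At 15 min 1 of the 6 rose and 5 fell, where 37.1% of all genes rose and 38.1% fell. COX5B, which encodes the hypoxic form of a cytochrome c oxidase subunit, rose from 149 to 1174 counts (wild type) and 207 to 1428 (deletion; log2 4.10, edgeR adjusted p = 1.21e-11). ANB1, the anaerobic eIF5A gene, fell from 123 to 13 and from 216 to 18 (log2 -2.19, adjusted p = 2.12e-06), and AAC3, an anaerobic ADP/ATP carrier gene, fell by 2.01 on the log2 scale (adjusted p = 1.76e-06). At 60 min again 1 was higher than in glucose and 5 lower, where 32.3% and 33.9% of all genes were, with ANB1 at -3.02 (edgeR adjusted p = 3.61e-07). ANB1, AAC3 and COX5B have close paralogs with which reads may be shared.

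Of 6 tested genes activated by Hap1, of which HMG1 is also in the ergosterol list, 4 rose and 2 fell at 15 min (1 fell in DESeq2), where 37.1% of all genes rose and 38.1% fell. The list is named for a known activator in which both strains are weak, and Hap1 activity was not measured. CTT1, the cytosolic catalase gene (log2 4.26, edgeR adjusted p = 1.34e-11), CYT1, for cytochrome c1 (3.90, adjusted p = 2.02e-10), and QCR2, for a subunit of the same respiratory complex (3.44, adjusted p = 1.49e-10), changed most. Between the strains 1 was higher in the deletion, the flavohemoglobin gene YHB1 (0.88, edgeR adjusted p = 3.19e-03), and 1 lower, CYC1, for cytochrome c (-0.65, adjusted p = 0.0112). The number called lower was 0 without the glucose libraries and 2 without the 60 min libraries. Over all genes 1.1% were called higher in the deletion and 0.733% lower. Of 4 tested mannoprotein genes of anaerobic growth, 2 were higher in the deletion (TIR1 and TIR3), 0 were lower (0 at an unadjusted p under 0.05, and 0 in DESeq2 and limma), and both fell at 15 min. This list too was chosen with earlier results of these data known, so its strain counts are no independent evidence. The sterol importer genes AUS1 and PDR11 and the DAN genes of that list are not analysed here.

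Other genes that move or store neutral lipid were read beside the members. Between the strains so few genes were called (1.1% higher and 0.733% lower) that a count of 0 in lists of this size is near the background. Of 17 tested genes of sterol ester turnover, sterol acetate export and sterol transport, 0 were called higher and 0 lower in the deletion by edgeR (1 and 3 at an unadjusted p under 0.05, and 0 in DESeq2 and limma). Of 9 genes of triacylglycerol and lipid droplets 0 were called each way by edgeR (2 higher and 2 lower at an unadjusted p under 0.05, and 0 in DESeq2 and limma), although 1 was lower without the 60 min libraries. At 15 min, where 37.1% of all genes rose and 38.1% fell, 8 of the 17 rose and 3 fell, led by NPC2, a vacuolar sterol transfer gene (2.35, edgeR adjusted p = 3.90e-09), OSH2 (2.06, adjusted p = 7.23e-09) and LAM5 (1.68, adjusted p = 1.62e-08). Of the 9, 6 rose and 0 fell (0 at an unadjusted p under 0.05 and in DESeq2 and limma). The triacylglycerol lipase gene TGL4 rose by 2.13 (edgeR adjusted p = 2.61e-09) and the droplet coat gene PLN1 by 2.29 (adjusted p = 7.20e-09), at the time when the steryl ester hydrolase gene YEH1 was at its lowest. Whether these changes are linked was not tested. At 60 min 7 of the 17 were higher than in glucose and 7 lower (6 and 4 in DESeq2), where 32.3% and 33.9% of all genes were. The largest change was that of NPC2 (2.09, edgeR adjusted p = 2.56e-08), followed by PRY1, a secreted sterol-binding protein gene (1.49, adjusted p = 4.30e-07).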

How the data were processed

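The values were read counts per gene in 6 libraries, whole numbers used as deposited by the authors. Alignment with Bowtie to sacCer3 is named in the submitters' processing notes, whereas what counted the reads, with which strand setting and windows, was not given in the sources used here. The table held 5219 genes, 5116 of which matched a RefSeq table of the same assembly (R64), source of the coordinates and coding lengths, and 3 lines without values were left out.

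Genes with a mean count of 10 were fitted with edgeR 4.0.16 (R 4.3.3, TMM, quasi-likelihood, adjusted p under 0.05). The method was run on simulated data in which both strains responded alike, with the outcome not given here. That simulation does not cover genes whose response differs between the strains. Strain differences within a condition and each strain's own changes used log2 CPM with a prior count of 2. Their exact intervals (SciPy 1.17.1) used the counts without the prior count. Alternatives were other scalings, filters, prior counts, a stricter threshold of 0.01, fits to subsets of the libraries, DESeq2 1.42.0 and limma 3.58.1. The members and lists were chosen with earlier results of these data known. Named genes were the members, the 3 largest called changes of a list, the gene nearest in course and, outside that rule, adjacent genes. Figures used matplotlib 3.10.9. Promoter motifs were not analysed here.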

Additional observations from a re-analysis of the deposited data

Results flagged for a closer look

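Some genes had opposite signs in groups compared under the same contrast, and none of these differences was tested, since each rests on 1 library per group. ARE1 was slightly higher than in glucose in the wild type and lower in the deletion at both galactose times, a difference in response (deletion minus wild type) of -0.078 log2 units at 15 min and -0.46 at 60 min. The response at 60 min also had opposite signs for ARE2 (difference 0.41) and SAY1 (-0.18). The counting intervals held 0 for both strains for ARE1 at 15 min and SAY1 at 60 min, for the wild type for ARE1 at 60 min and for the deletion for ARE2 at 60 min, so these signs are not resolved at this depth. The difference between strains was negative in glucose and positive in galactose for ECM22, ROX1 and ARE2, with a span between the highest and the lowest condition of 0.68, 0.63 and 0.48. For ROX1 the intervals in glucose and at 15 min lay on opposite sides of 0.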

How the results depend on the processing

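Of 216 refitted log2 changes of the members with galactose, 209 kept their side of the threshold, 5 lost a call and 2 gained one. No called change turned its direction, but 3 values that were not called did: SAY1 at 60 min (-0.01) was 0.07 with library totals and 0.01 without the 15 min libraries, and ARE1 from 15 to 60 min (-0.14) was 0.01 with library totals. The number of members called at 60 min against glucose was 5, and 3 in DESeq2; the cause was not tested. The other 38 of 39 recomputed counts of members stayed within 1.5 times. The gained calls were SAY1 at 15 min with upper quartile factors (log2 -0.43) and ECM22 at 60 min with library totals (0.51). Recomputed with other prior counts, RLE factors or library totals, 1 strain difference turned its sign (MOT3 in glucose, 0.04 to -0.02 with library totals). No strain difference moved by more than the distance from the middle to the end of its counting interval. Differences in response at 15 and 60 min have no interval of their own; that of YEH1 at 15 min went from 1.44 to 0.96 with a prior count of 10. Of 476 recomputed counts for the other lists, all run after seeing the data, 27 moved by more than 1.5 times. Over all genes, library totals shifted the median change from 15 to 60 min to 0.15, with 1436 genes higher and 547 lower (1056 and 835 with TMM), and upper quartile factors gave 1295 and 650 there and a median of -0.14 at 15 min. Between strains, 57 genes were higher and 38 lower, but 58 and 81 with library totals, 70 and 86 with upper quartile factors, 38 and 12 in DESeq2, 34 and 13 in limma, 93 and 53 without the 15 min and 85 and 84 without the 60 min libraries. At the wild-type depth of 15 min, values of YEH1, UPC2 and ATF2 rest on 8, 28 and 31 counts.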
